A study of Mus musculus with 51 samples.

Results

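Cholesterol is made in hepatocytes by a chain of enzymes, and 9 of their genes were examined here: Hmgcs1, Idi1, Fdps, Fdft1, Sqle, Lss, Cyp51, Sc5d and Dhcr7. They were picked by name, as enzymes of the pathway, with earlier results of these data known. Of the 9, 8 had a row among the 33773 genes of the expression matrix, and Hmgcs1 was not analysed here. Expression was measured by RNA sequencing and is given as RPKM, the number of reads divided by gene length and library depth. The libraries came from mouse hepatocytes in 4 groups and from mouse liver in 2 groups. Triple null hepatocytes (n = 4) lack FoxA3 from birth and lost FoxA1 and FoxA2 as adults. These FoxA1 L/L, FoxA2 L/L, FoxA3-/- mice received, at 8 weeks of age, an adeno-associated virus of serotype 8 in which the hepatocyte promoter Tbg drives Cre recombinase. FoxA3 null hepatocytes (n = 4) are the matching controls, with the same alleles and a virus that carries GFP, so both groups lack FoxA3 and both received a virus. The lox hepatocytes (n = 3) carry floxed FoxA1 and FoxA2 without deletion, and the Cre alfp hepatocytes (n = 4) carry the same alleles with the Cre line labelled alfp. Both have FoxA3. The liver set holds livers labelled HNF4a control (n = 2) and HNF4a null (n = 4), the latter described as deleted in the adult. No age is given for the other groups. Nor do the labels say that each library came from a separate animal, so p-values measure the spread between these libraries, which may be partly technical.

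Cholesterol synthesis starts from acetyl-CoA, passes through mevalonate to isoprenoid units, joins these into squalene, closes squalene into lanosterol and trims lanosterol to cholesterol. In liver most genes of the chain are switched on together by the transcription factor SREBP-2, the product of Srebf2. Scap carries SREBP from the endoplasmic reticulum to the Golgi when sterols are scarce, the proteases encoded by Mbtps1 and Mbtps2 release it there, and the Insig proteins hold it back when sterols are plentiful. The genes examined cover the isoprenoid step (Idi1, Fdps), the squalene and lanosterol step (Fdft1, Sqle, Lss) and the sterol step (Cyp51, Sc5d, Dhcr7).

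The targeted genes were read in every library as a check of the labels. Foxa3 was listed at no more than 0.0114 RPKM in the 8 FoxA3 null and triple null libraries and at 19 RPKM or more in lox and Cre alfp. Foxa2 was 0.243 to 0.47 RPKM in the triple null against 11.1 to 20.6 in FoxA3 null, and Foxa1 was 3.04 to 3.63 against 6.14 to 10.1. In Cre alfp, Foxa1 was 1.14 to 1.34 RPKM and Foxa2 0.991 to 1.26, below every lox library. Hnf4a went against its label: the HNF4a control libraries held 126 and 118 RPKM, and those labelled HNF4a null held more, namely 519, 545, 487 and 545 RPKM. The matrix has 1 value per gene and does not show which exons were read, so it cannot check the deletion itself. Exchanged labels cannot be told apart from it. An exchange would turn the sign of every liver difference given here and invert every share of the control mean. The groups are therefore named by their labels only. Hepatocyte markers summed to between 10516 and 40300 RPKM in the 21 libraries. Absolute depth is unknown. Relative depth, read from the low RPKM values, was 2.01 to 4.07 in the hepatocyte libraries and 1 to 1.1 in the liver libraries, so low values are least precise in liver.

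Promoters are shown for the members because SREBP-2 acts there with partner factors, chiefly NF-Y, which binds the letters CCAAT, and Sp1. RefSeq windows of build GRCm38.p6, reaching from 250 bases before to 50 bases after a transcript start, were at hand for Idi1, Lss, Cyp51, Sc5d and Dhcr7, and the table holds none for Fdps, Fdft1 and Sqle. The 250 bases before the start are printed for 4 of them, with capitals on each CCAAT, which reads ATTGG on the opposite strand. They lie at chr13:8885356-8885605 (plus strand) for Idi1, chr10:76531355-76531604 (plus strand) for Lss, chr5:4104698-4104947 (minus strand) for Cyp51 and chr9:42264301-42264550 (minus strand) for Sc5d.
Idi1: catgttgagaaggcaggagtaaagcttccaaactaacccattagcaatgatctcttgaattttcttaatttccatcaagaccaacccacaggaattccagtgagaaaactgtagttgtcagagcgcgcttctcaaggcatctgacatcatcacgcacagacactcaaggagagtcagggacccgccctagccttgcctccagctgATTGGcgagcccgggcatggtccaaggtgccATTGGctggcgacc
Lss: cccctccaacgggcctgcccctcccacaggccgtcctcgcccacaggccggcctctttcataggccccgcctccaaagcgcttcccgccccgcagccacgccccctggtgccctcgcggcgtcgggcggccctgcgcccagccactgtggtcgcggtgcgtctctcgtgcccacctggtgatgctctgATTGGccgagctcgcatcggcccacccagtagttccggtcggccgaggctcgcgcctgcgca
Cyp51: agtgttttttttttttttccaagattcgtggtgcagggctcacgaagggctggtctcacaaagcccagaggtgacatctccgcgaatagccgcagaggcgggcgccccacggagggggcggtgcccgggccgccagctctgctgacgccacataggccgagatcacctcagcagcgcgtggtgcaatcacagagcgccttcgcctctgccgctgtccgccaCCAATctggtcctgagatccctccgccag
Sc5d: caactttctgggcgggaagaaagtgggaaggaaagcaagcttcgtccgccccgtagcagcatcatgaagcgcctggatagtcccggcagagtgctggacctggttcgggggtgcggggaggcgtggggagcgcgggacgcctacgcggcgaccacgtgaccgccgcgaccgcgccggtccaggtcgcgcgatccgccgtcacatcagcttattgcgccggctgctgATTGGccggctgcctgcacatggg

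All 5 genes had CCAAT on either strand in at least 1 window, and in the printed ones it sat close to the start. For Sc5d it spanned positions -24 to -20 from the transcript start, for Cyp51 -29 to -25 and for Lss -62 to -58. Idi1 held it at -45 to -41 and again at -14 to -10. CCAAT was in 37.4% of the 32851 windows of this length in the table. The Sp1 letters GGGCGG were likewise in a window of all 5 genes and in 35.7% of all windows. A sterol regulatory element spelled TCACNCCAC, where N is any base, was in none of the 7 windows of these genes and in 1.24% of all windows. Neither forkhead spelling, TGTTTAC (3.65% of all windows) or TGTTTGC (5.07%), and no HNF4a motif of the form CAAAGTNCA (1.41%) was in the members' windows. A match is a run of letters only, and its absence concerns only these letters and windows.

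The members differed widely in level, which RPKM allows to be compared because it is per length. Sc5d, the desaturase that makes 7-dehydrocholesterol, was highest in each of the 15 hepatocyte libraries, at 51.5 to 186 RPKM. Idi1, which interconverts both isoprenoid units, was lowest in every library, at 0.296 to 5.72 RPKM. Of the 15 hepatocyte libraries, Idi1 reached the filter of 1 RPKM only in triple null 3 and in FoxA3 null 1, 2 and 4. It thus entered the tests through the groups where it was high. The remaining members lay between 2.66 and 167 RPKM over all 21 libraries.

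**Figure D1:**
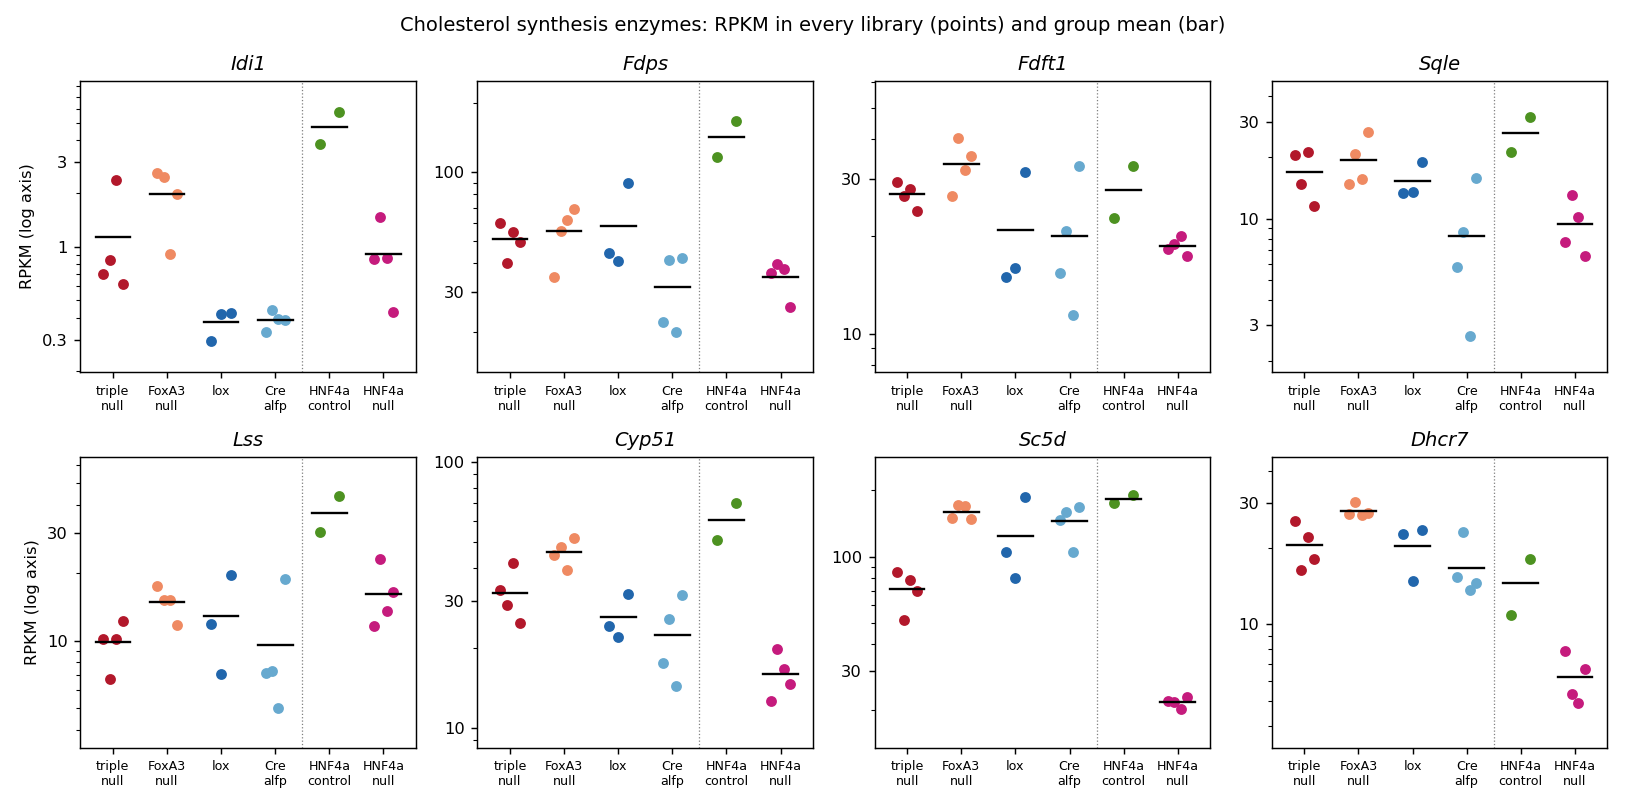
RPKM of the 8 members in each library, 1 panel per gene on a logarithmic axis, with points for libraries and a bar for the group mean; the dotted line parts hepatocyte from liver groups. The 4 libraries labelled HNF4a null lie below both control libraries in all 8 panels, and the triple null lies apart from FoxA3 null for Sc5d and Dhcr7.

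By group mean, HNF4a control was highest for 6 members and FoxA3 null for Fdft1 and Dhcr7. For Idi1, Fdps, Lss and Sc5d the HNF4a control libraries did not overlap those of the next group. The lowest group was that labelled HNF4a null for Fdft1, Cyp51, Sc5d and Dhcr7, Cre alfp for Fdps, Sqle and Lss, and lox for Idi1. For Sc5d the order was HNF4a control (183 ± 9.75 RPKM, SD), FoxA3 null (160 ± 12.3), Cre alfp (145 ± 28.1), lox (124 ± 55.2), triple null (71.1 ± 14.4) and labelled HNF4a null (21.7 ± 1.18). In that order only HNF4a control and the group labelled HNF4a null stood apart from the neighbouring group. Levels of the liver and hepatocyte sets differ in tissue as well as in genotype and were not tested against each other.

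The liver comparison asks what changes in the pathway where HNF4a, a nuclear receptor that sustains liver gene expression, is targeted. All 8 members were lower in the libraries labelled HNF4a null, and none overlapped with control. How many of all genes lacked overlap was not counted, so the lack of overlap is a description only. A gene was called when its limma p-value, adjusted by the Benjamini-Hochberg method over all genes, was under 0.05. In this comparison 11.7% of the 12434 genes tested were called lower and 41.1% higher, against 8 of 8 members lower. Idi1 needed the control libraries, where it was high, to pass the filter of 1 RPKM in 2 liver libraries, so its part in these counts is a description. With a minimum log2 difference of 1 added, 5.95% of all genes and 7 of 8 members were called lower, the exception being Fdft1. The members' median log2 difference was -1.51, while the median over all genes was 0.337. Differences are therefore also given relative to that shift. All are on the log2(RPKM + 1) scale, which understates the change of a gene as low as Idi1. In bulk liver, fewer cells of a type and less RNA per cell cannot be told apart.

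At the isoprenoid step, Idi1 was 3.78 and 5.72 RPKM in control and 0.854, 1.47, 0.868 and 0.432 in the libraries labelled HNF4a null. The log2 difference was -1.6 (SE 0.24, limma's adjusted p 0.00217), or -1.94 relative to the shift, given as a description because of the filter. Both controls were above all 4 other libraries, whose mean was 19.1% of the control mean. Fdps, which builds farnesyl diphosphate, was 117 and 167 RPKM in control against 36, 39.5, 37.5 and 25.8. Its log2 difference was -1.99 (SE 0.21, limma's adjusted p 0.000515), or -2.33 relative to the shift. The highest library labelled HNF4a null was far below the lower control.

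At the squalene step, Fdft1, the squalene synthase, was 22.7 and 32.9 RPKM in control against 18.2, 18.9, 20.1 and 17.4. This was the smallest difference among the members, -0.53 (SE 0.15, limma's adjusted p 0.0248), or -0.87 relative to the shift. The groups did not overlap, but the gap between the lower control and the nearest other library was narrow. Sqle, the epoxidase that is a rate-limiting enzyme of the branch to sterols, was 21.3 and 31.6 RPKM in control against 7.71, 13.1, 10.2 and 6.6. Its log2 difference was -1.42 (SE 0.27, limma's adjusted p 0.0057), or -1.75 relative to the shift. Lss, the cyclase that forms lanosterol, was 30.2 and 43.7 RPKM in control against 11.6, 23.1, 13.5 and 16.4, with a log2 difference of -1.17 (SE 0.27, limma's adjusted p 0.012), or -1.51 relative to the shift. For both enzymes the library GGCTAC was the highest of those labelled HNF4a null, and it too lay below control.

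At the sterol step, Cyp51, the lanosterol demethylase, was 50.8 and 69.9 RPKM in control against 12.6, 19.7, 16.7 and 14.6. Its log2 difference was -1.86 (SE 0.2, limma's adjusted p 0.000532), or -2.2 relative to the shift. Every library labelled HNF4a null was far below the lower control. Sc5d had the largest difference of the members, with 176 and 190 RPKM in control against 22, 21.8, 20.2 and 23. The libraries of each group were close together, and the mean of those labelled HNF4a null was 11.9% of the control mean. The log2 difference was -3.02 (SE 0.09, limma's adjusted p 2.5e-06), or -3.35 relative to the shift. Dhcr7, the reductase that completes cholesterol, was 10.9 and 18.1 RPKM in control against 7.83, 5.34, 4.91 and 6.69, a log2 difference of -1.09 (SE 0.24, limma's adjusted p 0.00885), or -1.42 relative to the shift.

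**Figure D2:**
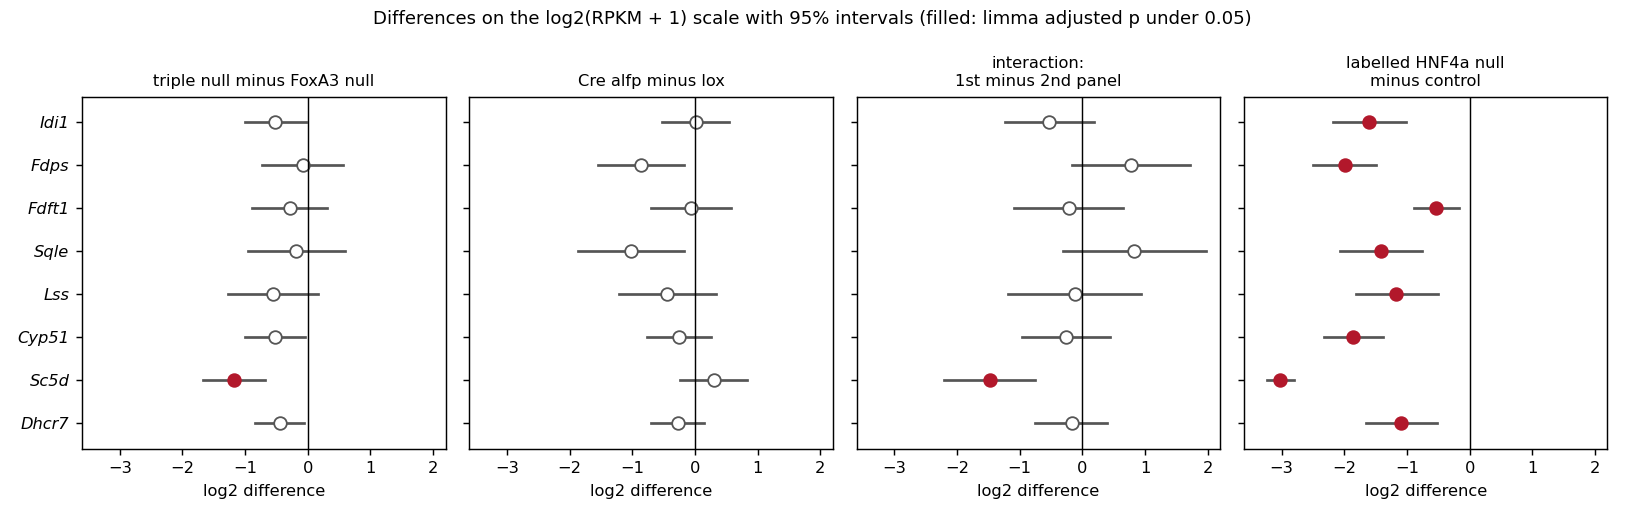
Log2 differences of the 8 members on the log2(RPKM + 1) scale in 4 panels, with lines for the 95% interval and filled points for limma's adjusted p under 0.05. All 8 members are filled in the liver panel, Sc5d alone is filled for triple null minus FoxA3 null and for the interaction, and none is filled for Cre alfp minus lox.

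The control library ATTCCTA was above ACTGATA for all 8 members, and with only 2 controls it bears on the calls. Without it, Lss (log2 difference -0.91), Fdft1 (-0.27) and Dhcr7 (-0.75) lost their calls. Fdft1 also lost its call without the library GAGTGGA (-0.52, 0.0517) or TAGCTTA (-0.5, 0.0521). Fdps, Sqle, Cyp51 and Sc5d were called whichever library was left out. With 1 control left, the spread comes from the other group alone, and the lone control is assumed to vary like it. The authors' deposited table calls all 8 members lower, against 24.9% of its genes, with log2 fold changes from -0.96 for Fdft1 to -3.49 for Sc5d.

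The rest of the enzyme chain moved with the members in liver. All 10 other enzymes analysed were called lower, beside 11.7% of all genes, with a median log2 difference of -1.36. With a minimum log2 difference of 1 added, 9 of 10 were called lower, beside 5.95% of all genes. Pmvk, a mevalonate pathway kinase, fell by 2.28 on the log2 scale, Hsd17b7 by 2.03 and Sc4mol (now Msmo1) by 1.9. Mvk, another of these 10, lost its call without control ATTCCTA or without the library GTGGCCA. One further enzyme on this list was not analysed here.

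The genes that control SREBP did not all follow. Srebf2 was not called, with a log2 difference of 0.00 and a 95% interval of -0.32 to 0.33, nor were Srebf1 (-0.35, limma's adjusted p 0.0839) and Scap (0.16, 0.344). Relative to the shift of all genes they were at -0.33, -0.69 and -0.17. The authors' deposited table calls Srebf2 (-0.46, adjusted p 0.0101) and Srebf1 (-0.86, adjusted p 1.32e-15) lower. Insig1, itself an SREBP target, fell by 2.43 (SE 0.25, limma's adjusted p 0.000418), from 72.9 and 104 RPKM in control to 14.4, 18.7, 18.6 and 10.9. Insig2 was higher by 1.29 (SE 0.28, limma's adjusted p 0.00869), at 120, 151, 123 and 92.9 RPKM against 66.6 and 35.4. Thus the Insig genes differed in opposite directions, and their libraries did not overlap. Mbtps1 (0.47) and Mbtps2 (0.67) were called higher, but not after the libraries were scaled to a common median (0.2 and 0.41), where Srebf1 was called lower. Insig2 (0.84, limma's adjusted p 0.0514) and Mbtps2 (limma's adjusted p 0.0593) were not called without control ATTCCTA.

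Other sterol genes were called in both directions. Among 7 genes of sterol uptake and handling, 3 were called lower and 2 higher, beside 11.7% and 41.1% of all genes. Stard4, a sterol carrier, fell by 2.12 on the log2 scale. Npc1 (0.93) and Npc2 (0.57), which move cholesterol out of lysosomes, were higher. Of 7 genes that use isoprenoids for other products, 3 were called higher (Fntb 0.78, Pdss1 0.66 and Coq2 0.48) and none lower, beside 41.1% of all genes called higher, and their median of 0.32 was close to the 0.337 of all genes. Fntb was at most 0.862 RPKM in control. It passed the filter only through the libraries labelled HNF4a null, so its part in this count is a description. Under median scaling Pdss1 and Coq2 were not called, and Pdss1 lost its call in 4 of 6 fits with a library left out. Of 11 genes of cholesterol use and export, 5 were called lower, among them Cyp8b1 (-5.81), Soat2 (-2.95), Cyp7b1 (-2.43) and Cyp7a1 (-1.03), beside 11.7% of all genes. Cyp8b1 and Soat2 passed the filter only through both controls, so they are descriptions and were not tested when a control was left out. Scarb1, the HDL receptor, was the single one called higher (1.32). Cyp7a1 lost its call under quantile normalization (limma's adjusted p 0.0573), and without either control or the library GTGGCCA, where the adjusted p reached 0.115.

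Markers of cell types moved in the same comparison. The 6 hepatocyte markers summed to 19674 and 19934 RPKM in control and to 10516 to 11718 in the libraries labelled HNF4a null. Of these markers 2 were called lower and 3 higher, the targeted gene Hnf4a being among the latter. The 6 cholangiocyte markers summed to 14.5 RPKM in both controls and to 107 to 205, and all 4 that were tested were called higher. Sums were 65.8 to 70.7 against 76.1 to 93.2 for macrophages, 88.4 to 95.9 against 99.1 to 113 for endothelium and 95.6 to 108 against 117 to 138 for stellate cells. Neutrophil markers summed to 0.619 to 1.75 RPKM against 2.94 to 14.1, with Ly6g at 0 in all libraries, and lymphocyte markers to at most 2.13. The ranges of erythroid markers overlapped. The part of these cell types in the difference in enzyme levels was not tested. Mean levels of Sc5d and Fdps were 11.9% and 24.5% of control beside these sums.

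The viral deletion tests the pathway after removal of FoxA1 and FoxA2 from hepatocytes that never had FoxA3, with FoxA3 null as control. Among the 11500 genes tested 29.7% were called, 12.3% lower and 17.4% higher. One of 8 members, Sc5d, was called, and it was lower. The other 7 members had log2 differences between -0.56 and -0.08, and none passed the test. The members' median was -0.48 against 0.05 over all genes. For comparison, the 10 other enzymes of the chain had a median of 0.04, 5 on either side of 0, and none was called.

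Sc5d was 84.8, 51.5, 77.9 and 70 RPKM in the triple null and 150, 172, 170 and 149 RPKM in FoxA3 null. The highest triple null library was far below the lowest FoxA3 null library, and 44.4% of the FoxA3 null mean remained. The log2 difference was -1.18 (SE 0.23, limma's adjusted p 0.00155). With any 1 library left out it ranged from -1.27 to -1.04 and kept its call. The authors' deposited table gives -1.16 (adjusted p 5.18e-09).

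The neighbouring sterol enzymes were less clear. Dhcr7 was 25.5, 16.4, 22 and 18.1 RPKM in the triple null and 27.1, 30.4, 26.9 and 27.5 in FoxA3 null. All triple null libraries were below all FoxA3 null libraries, by a narrow margin, with a log2 difference of -0.45 (SE 0.18, limma's adjusted p 0.0786). Cyp51 was 32.9, 29, 41.6 and 24.7 RPKM against 44.8, 47.8, 39.2 and 51.8. Here triple null 3 overlapped with FoxA3 null 3, and the log2 difference was -0.52 (SE 0.22, limma's adjusted p 0.0885). Cyp51 was called when triple null 3 was left out (-0.65, limma's adjusted p 0.0442), and Dhcr7 when triple null 1 was (-0.56, 0.0445).

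Before the sterol step, Lss was 10.2, 6.72, 10.2 and 12.2 RPKM in the triple null and 17.5, 15.1, 15.1 and 11.7 in FoxA3 null, a log2 difference of -0.56 (SE 0.34, limma's adjusted p 0.225). FoxA3 null 4 lay within the triple null range. Idi1 was 0.699, 0.846, 2.37 and 0.617 RPKM against 2.62, 2.47, 0.913 and 1.98, a log2 difference of -0.52 (SE 0.23, limma's adjusted p 0.102). Most triple null libraries were low, but triple null 3 was as high as FoxA3 null, and FoxA3 null 3 was nearly as low as the triple null. Without triple null 3 its difference was -0.76 (limma's adjusted p 0.00764) and without FoxA3 null 3 it was -0.72 (0.0192). Because Idi1 passed the filter mainly through FoxA3 null libraries, these values are descriptions and are not read as calls. Idi1 has a close paralog, Idi2, and how reads that fit both were counted is not given in the sources used here.

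The remaining members overlapped broadly. Fdps was 59.8, 40, 54.6 and 49.3 RPKM in the triple null and 34.9, 55.4, 61.5 and 68.7 in FoxA3 null, a log2 difference of -0.08 with a 95% interval of -0.73 to 0.56. Fdft1 was 29.4, 26.6, 28.1 and 24 RPKM against 26.6, 40.3, 32 and 35.4, a difference of -0.29 (-0.89 to 0.3). Sqle was 20.6, 14.8, 21.2 and 11.6 RPKM against 14.8, 20.8, 15.6 and 26.7, a difference of -0.18 (-0.96 to 0.59). The intervals leave room for changes of either sign in these 3 genes. The authors' deposited table, whose test and filters are not stated, calls 4 members lower against 22.1% of its genes. Besides Sc5d these are Idi1 (-0.94), Cyp51 (-0.45) and Fdft1 (-0.39).

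Of the 7 SREBP regulators, 2 were called lower and none higher, beside 12.3% and 17.4% of all genes. Scap, the SREBP escort, was 11.2, 8.75, 21.8 and 10.5 RPKM in the triple null and 60.3, 39.6, 29.1 and 23.5 in FoxA3 null, a log2 difference of -1.47 (SE 0.28, limma's adjusted p 0.00136). Its groups did not overlap, though triple null 3 was close to FoxA3 null 4. Mbtps1 was also lower without overlap, by -0.51 (SE 0.1, limma's adjusted p 0.0016). Srebf2 (-0.21, limma's adjusted p 0.28), Srebf1 (-1.24, 0.135), Insig1 (-0.33, 0.541), Insig2 (0.68, 0.368) and Mbtps2 (-0.09, 0.539) were not called. Of 6 tested genes of sterol uptake and handling, only Npc1 was called lower, a share near the 12.3% of all genes (-0.57, limma's adjusted p 0.0288), and not when triple null 2 or 4 or FoxA3 null 1 or 2 was left out, where the highest adjusted p was 0.0872.

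Genes of isoprenoid use and cholesterol use were also counted. Of 7 isoprenoid branch genes, 3 were called higher (Pdss1 0.74, Fntb 0.39 and Coq2 0.28), beside 17.4% of all genes. Pdss1 was not called under median or quantile scaling (limma's adjusted p 0.0571 and 0.054), nor Coq2 under quantile scaling (0.0652). Fntb, a subunit of protein farnesyltransferase, kept its call with each library left out, while Pdss1 and Coq2 each lost it in 5 of 8 such fits. Of 10 tested genes of cholesterol use and export, 4 were called lower and 2 higher, beside 12.3% and 17.4% of all genes. Cyp8b1 and Cyp27a1, both bile acid enzymes, fell by 5.39 and 1.6, Soat2, which esterifies cholesterol, by 0.79 and Abca1, an exporter, by 0.67. Cyp8b1 was at most 0.548 RPKM in the triple null. It passed the filter through the other hepatocyte groups, so its value here and in the interaction is a description. Abca1 lost its call in 5 of 8 fits with a library left out, the highest adjusted p being 0.12. Scarb1 and Nr1h3, which encodes the sterol receptor LXR alpha, were both higher by 0.67.

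Cell type markers differed here too. Hepatocyte markers summed to 19906 to 27121 RPKM in the triple null and 29684 to 40300 in FoxA3 null. The sums were 4.59 to 8.85 against 12.9 to 26.7 RPKM for endothelial, 6.19 to 22.4 against 24.1 to 33.3 for stellate and 9.04 to 110 against 0.702 to 1.65 for neutrophil markers. Erythroid markers summed to 5.94 to 21.7 RPKM against 33 to 47.3. Singly they went both ways: of 3 tested, 2 were called higher and 1 lower, with a median log2 difference of 1.49. Cholangiocyte, macrophage and lymphocyte sums overlapped between the groups. The part of these differences in the level of Sc5d was not tested.

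With FoxA3 in place, deletion of FoxA1 and FoxA2 is tested by Cre alfp against lox. Here 5.46% of genes were called, 2.62% lower and 2.84% higher, and none of the 8 members by limma. At an unadjusted p under 0.05, which 18.3% of all genes reached, there were 2, Fdps (-0.86, p 0.0186, limma's adjusted p 0.155) and Sqle (-1.02, p 0.0208, limma's adjusted p 0.166). Sc5d was 147, 159, 105 and 169 RPKM in Cre alfp and 105, 80.1 and 186 in lox, a log2 difference of 0.3 (SE 0.25, limma's adjusted p 0.598). The lox libraries spanned the whole range of Cre alfp. Sqle was 5.82, 8.62, 2.66 and 15.8 RPKM against 13.4, 13.5 and 19.1, and its Cre alfp libraries were low except Cre alfp 4. Without that library Sqle was called lower (-1.38, limma's adjusted p 0.0285). Fdps was 22, 41.2, 20 and 42.1 RPKM against 44.2, 40.8 and 89.5, so Cre alfp 2 and 4 reached the lower lox values.

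None of the other members passed the test at either threshold. Idi1 was under 0.44 RPKM in all 7 libraries. Fdft1 was 15.4, 20.7, 11.4 and 32.9 RPKM in Cre alfp against 15, 16 and 31.6 in lox. Lss was 7.19, 7.29, 5.01 and 18.8 RPKM against 11.9, 7.07 and 19.6, with Cre alfp 4 apart from the rest of its group. Their groups overlapped over most of the range. Cyp51 was 17.5, 25.7, 14.3 and 31.5 RPKM against 24.2, 22 and 31.8, and Dhcr7 was 15.3, 23.1, 13.6 and 14.6 RPKM against 22.7, 14.8 and 23.5. The log2 differences of these 5 genes lay between -0.44 and 0.01. None of the 10 other enzymes or 7 SREBP regulators was called, and of 10 genes of cholesterol use, Cyp7b1 (-1.55) and Cyp27a1 (-0.83) were lower and Soat2 (0.9) higher. Cyp7b1 lost its call in 4 of 7 fits with a library left out and Soat2 without lox 1, with adjusted p up to 0.111 and 0.0521.

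Whether the effect of deletion depends on FoxA3 was tested by an interaction term, in which the Cre alfp effect is subtracted from the triple null effect. It was called in 14.4% of genes, 6.17% below 0 and 8.25% above, and in 1 of 8 members, Sc5d, below 0. For Sc5d the effects were -1.18 in the arm lacking FoxA3 and 0.3 in the arm that has it, so the interaction was -1.48 (SE 0.34, limma's adjusted p 0.0104). It ranged from -1.81 to -1.21 and stayed called when any 1 of the 15 libraries was left out. Markers also moved in this term: 2 of 2 neutrophil markers tested were called above 0 (median 2.55), and 2 of 3 stellate (median -1.27), 1 of 5 endothelial, 2 of 6 hepatocyte and 1 of 3 erythroid markers below. In Cre alfp and lox, neutrophil sums were 1.19 to 3.38 and 0.723 to 1.24 RPKM, and stellate sums 13.8 to 48.6 and 21.1 to 27.4. Their part in the Sc5d interaction was not tested. For Fdps (0.77, limma's adjusted p 0.257) and Sqle (0.83, 0.317) the interaction was positive but not called. Scap (-1.73, limma's adjusted p 0.0131), Mbtps1 (-0.69, 0.00731) and Npc1 (-1.23, 0.00763) had the same sign as Sc5d and were called, as were Cyp8b1 (-4.16) and Soat2 (-1.69), while Nr1h3 (0.67) was higher. Cyp27a1 was called too (-0.77, limma's adjusted p 0.034), but lost the call in 9 of 15 fits with a library left out. The arms differ in how and when FoxA1 and FoxA2 were deleted as well as in FoxA3. Foxa1 RNA also remained higher in the triple null (mean 3.28 RPKM) than in Cre alfp (1.24). These differences cannot be told apart here.

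Comparisons across the remaining pairs also part the libraries by FoxA3 genotype, which in the hepatocytes cannot be told apart from a difference between the library sets. Triple null against lox called 42.5% of genes (14.8% lower, 27.7% higher), triple null against Cre alfp 41.2% (14.4% lower, 26.9% higher) and FoxA3 null against lox 34.8%. Median log2 differences over all genes were 0.13, 0.13 and 0.1. Sc5d was called lower in the triple null against lox (-0.73, SE 0.25, limma's adjusted p 0.0297), or -0.86 relative to the shift. That call was lost without lox 3 (-0.39, limma's adjusted p 0.165), triple null 2 (-0.58, 0.0845) or triple null 4 (-0.73, 0.0535). It was also lost with no filter on low values (limma's adjusted p 0.0691), a minimum log2 difference of 1 or only the compared groups fitted. Against Cre alfp, Sc5d was lower (-1.02, SE 0.23, limma's adjusted p 0.003) with no overlap, and Sqle was higher (1.14, SE 0.36, limma's adjusted p 0.0215) with overlap. The authors' deposited table does not call Sqle in this comparison (0.82, adjusted p 0.206). Sqle was not called without triple null 1 or 3 or Cre alfp 1 or 3, where the adjusted p reached 0.0625. Without Cre alfp 4, Fdft1 (0.77), Cyp51 (0.73) and Fdps (0.91) were also called higher, for 5 members in all, without Cre alfp 2 Fdps (0.9) was, and without triple null 4 Cyp51 (0.66) and Idi1 (0.66) were, for 4. Idi1 entered through libraries that lack FoxA3 and reached 1 RPKM in no Cre alfp library, so its part in that number is a description. Without Cre alfp 4, 1615 of all 11453 genes tested were called lower and 2992 higher. Without triple null 4 it was 1423 and 2697 of 11452.

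FoxA3 null against lox called Cyp51 and Idi1 higher, where 21.7% of all genes were called higher and 13.0% lower. Idi1 was admitted to the test through FoxA3 null and triple null libraries, so its call is a description and the number called is not read further. Idi1 was 0.913 to 2.62 RPKM in FoxA3 null and 0.296, 0.418 and 0.424 in lox, a log2 difference of 1.08 (SE 0.25, limma's adjusted p 0.0057). Every FoxA3 null library exceeded every lox library, although lox was below 1 RPKM, where values are imprecise. Cyp51 was 39.2 to 51.8 RPKM against 24.2, 22 and 31.8, a log2 difference of 0.81 (SE 0.24, limma's adjusted p 0.0193), again without overlap. Its call was lost without lox 1 (0.77, limma's adjusted p 0.0654) or lox 2 (0.7, 0.0829). Without lox 3, Fdft1 (1.05, limma's adjusted p 0.0167) and Sc5d (0.79, 0.0147) were called as well, for 4 members. In that fit 1384 of all 11444 genes were called lower and 2393 higher. The 3 comparisons share groups with each other and with those above, so their values are set side by side only.

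In lox and Cre alfp, the members and the other enzymes tended to be high or low in the same library. For how many of all genes the same library ranked highest or lowest was not counted. Over genes at 1 RPKM or more, lox 3 differed more from lox 1 and 2 than these did from each other. The SD of the log2 difference was 0.496 and 0.484 against 0.349. The library lox 3 was the highest of its group for 8 of 8 members and 10 of 10 other enzymes. The same library had 203 RPKM of Insig1 and 337 RPKM of Srebf1, against 53 to 72.5 and 38.5 to 68 RPKM in lox 1 and 2. Its Insig2, at 36.9 RPKM, was low against 179 and 238. Cre alfp 4 was highest of its group for 6 members and 7 other enzymes, with Insig1 at 100 RPKM and Insig2 at 65.5, while Cre alfp 3 was lowest for 7 members and 7 other enzymes. In FoxA3 null and the triple null no library led for more than 4 members, though triple null 3 was highest for 8 of 10 other enzymes. The part of Insig1, Insig2 and Srebf1 levels in these patterns was not tested.

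**Figure D3:**
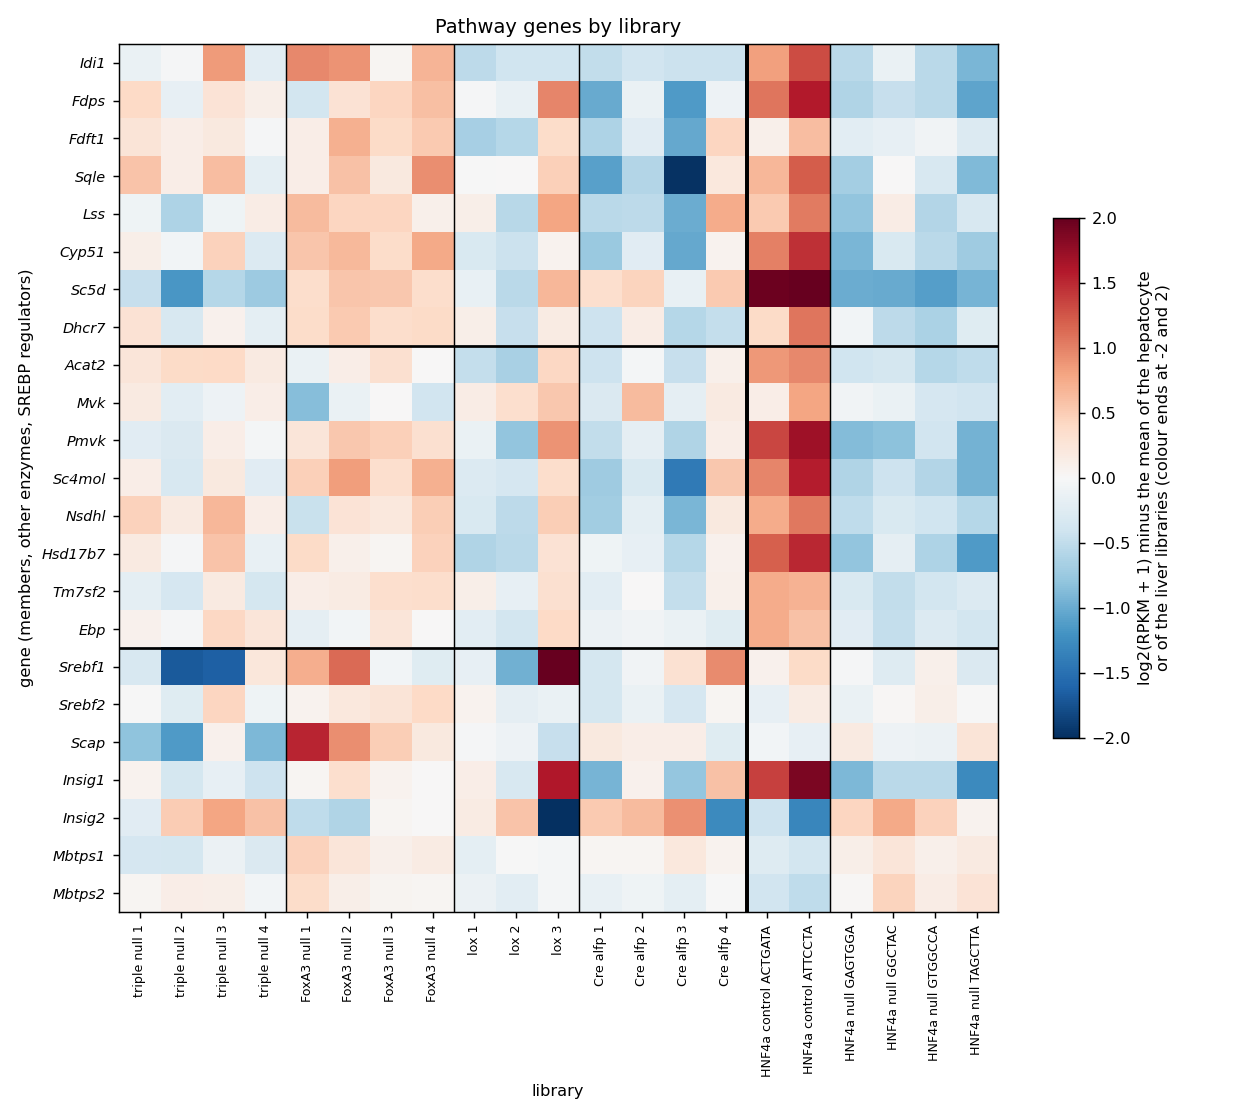
Colours show log2(RPKM + 1) of the 8 members, 8 of the other enzymes and 7 SREBP regulators (rows, in 3 blocks) in each library (columns), minus the gene's mean over the hepatocyte or over the liver libraries. Both enzyme blocks are red in the HNF4a control libraries and, except for Idi1, in lox 3, Cre alfp 3 is mostly blue there, and the Sc5d row is blue across the 4 triple null libraries.

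Likeness to the members' mean profile was measured over the 21 libraries as the root mean square gap between centred log2 values, among 7256 genes with a mean of at least 5 RPKM. Cyp51 was nearest (gap 0.167), followed by Sc4mol (0.193) and Hsd17b7 (0.282). Members enter the profile they are compared with. Sc5d ranked 3939 with a gap of 0.793. Dhcr7 ranked 618 and Lss 693. Outside the lists the nearest genes were Mmab (gap 0.287), Cyp2r1 (0.314), Lrrc3 (0.322), Lap3 (0.34) and Cml2 (0.343). Mmab encodes an enzyme of cobalamin processing and was 7.76 ± 1.3 RPKM in HNF4a control (SD, n = 2), 4.09 ± 0.372 in the libraries labelled HNF4a null and 3.41 ± 0.906 in Cre alfp (n = 4 each).

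Development was available only as the authors' deposited tables, whose adult reference libraries are not stated. In the authors' deposited table of hepatoblasts, the fetal precursors of hepatocytes, against adult, 6 of 8 members were lower, where 37.9% of its genes were. Sc5d had the largest log2 fold change there, -4.46, then Fdps (-2.74), Dhcr7 (-1.55) and Cyp51 (-1.52). Idi1 (0.23) and Sqle (-0.06) were not called in the authors' deposited table, and 7 of 10 other enzymes were lower. The authors' deposited table of newborn against adult was mixed: Fdps was lower (-1.47), Lss (1.73) and Dhcr7 (0.63) were higher, and the other 5 were not called, against 31.7% of genes lower and 31.6% higher. Triple null against hepatoblast, also from the authors' deposited table, had 5 members higher against 37.6% of genes, with Sc5d at 3.43, Fdps at 2.32, Cyp51 at 1.56, Dhcr7 at 1.35 and Fdft1 at 1.15. The file does not state the direction of this last table. It was inferred from its values running opposite to the hepatoblast table over all genes, so its sign adds nothing to that table. These tables share hepatoblast and perhaps adult samples, so they were not compared with one another.

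**Figure D4:**
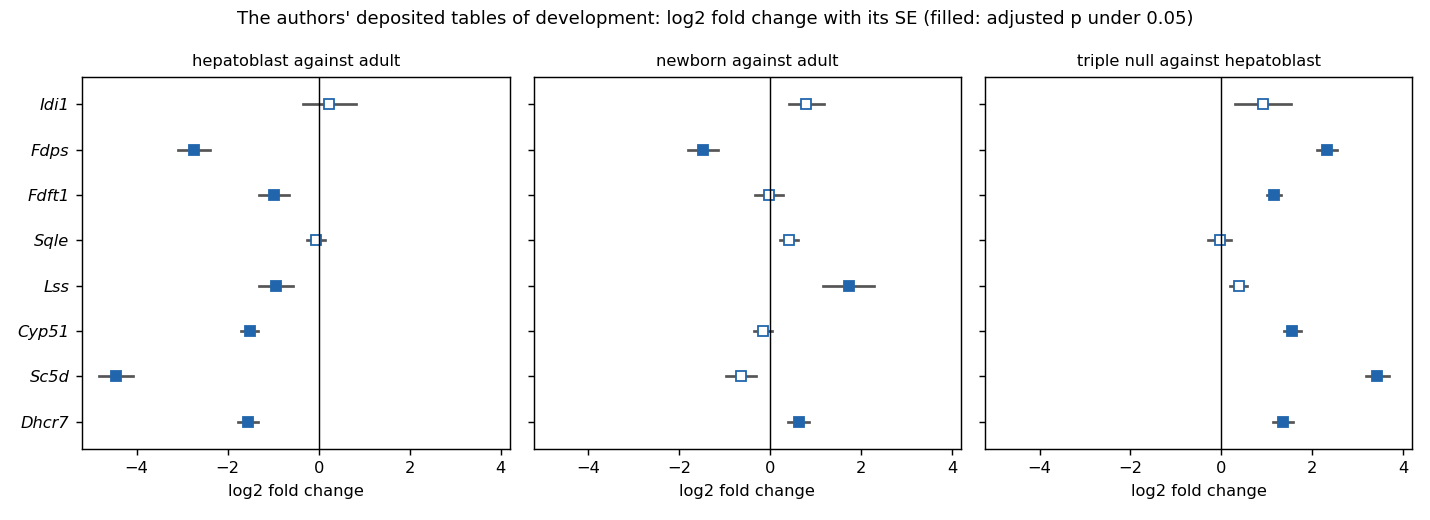
Log2 fold change of the 8 members with its standard error in 3 of the authors' deposited tables, with filled squares for an adjusted p under 0.05. Hepatoblasts were lower than adult in 6 members, newborns in 1, and the triple null was higher than hepatoblasts in 5.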

How the data were processed

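RNA was measured by sequencing in 15 hepatocyte and 6 liver libraries. The authors deposited 1 matrix of RPKM values with 30 columns; 21 matched a sample or group by name, and 9 that matched none were not used. The submitters' processing notes name build mm9, SAMtools, Cufflinks 2.2.1 and DESeq2, with no role or order. The liver columns carry barcodes, by which those libraries are named. The authors' deposited tables hold log2 fold changes, in most cases with their standard errors, and p-values, per the file headers; the last p-value column against Cre alfp was unadjusted and was adjusted here, the sign against undeleted controls was turned to fit triple null against lox, and the direction of triple null against hepatoblast was inferred from the values. A peak list deposited by the authors, whose column holds another score, was not used, since no annotation of its build was at hand. Because the values are not counts, no count test was run. Between libraries of a group, at most 0.01% of values were identical.

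On log2(RPKM + 1), linear models were fitted by limma 3.58.1 (eBayes with trend, under R 4.3.3), once for hepatocytes and once for liver. A gene needed 1 RPKM in 3 hepatocyte or 2 liver libraries. The steps were tested on simulated data. Genes were called at a Benjamini-Hochberg adjusted p under 0.05 over all genes tested. Figures were drawn with matplotlib 3.10.9. Alternatives were a pseudocount of 0.1, no filter or a filter of 5 RPKM, median and quantile scaling, a minimum log2 difference of 1, no trend, a replicate block, the compared groups alone, and each library left out.

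Named are all members in every library, the targeted genes, up to 4 called genes of each list by size, all SREBP regulators, and the 5 genes outside the lists most like the members' mean. Called list genes beyond 4 were added after their values were seen, and some list genes that enter the counts are not reported here by name. Members and lists were chosen with earlier results of these data known. Symbols are those of the matrix, which names Msmo1 as Sc4mol. RefSeq promoters were matched by symbol for 5 of 8 members.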

Additional observations from a re-analysis of the deposited data

Results flagged for a closer look

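Sc5d differed between the FoxA3-deficient and the FoxA3-positive arm by the test of the difference itself, with an interaction of -1.48 on the log2 scale. It was the only one of 8 members called, where 14.4% of all genes were. The arms also differ in how and when FoxA1 and FoxA2 were deleted, which cannot be told apart from FoxA3. Idi1 in triple null 3, at 2.37 RPKM, and Lss in Cre alfp 4, at 18.8 RPKM, lay apart from the other libraries of their groups by Dixon's criterion at the 95% level. Over 8 members, 32 groups were tested in this way and 2 libraries stood apart, where chance gives about 1 in 20 groups. The values of Idi1 without triple null 3 are given with that result.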

How the results depend on the processing

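Absolute depth and the source animals are unknown, liver has only 2 controls, and RPKM near 1 (Idi1) is imprecise. Over all members and comparisons, 449 values kept direction and side of the threshold under other settings, 6 reversed, 6 became called and 9 lost the call; with a library left out the numbers were 416, 21, 13 and 14. The number of members called in triple null against FoxA3 null was 2 under quantile normalization and 2 with only these groups fitted, against 1. In triple null against lox it was 2 with a pseudocount of 0.1, and 0 with no filter, a minimum log2 difference of 1 or only these groups fitted, against 1. In triple null against Cre alfp it was 1 with no filter, and 3 with a pseudocount of 0.1 or quantile normalization, against 2. In liver it was 7 with no filter, against 8. In FoxA3 null against lox it was 1 with a filter of 5 RPKM, 1 with a minimum difference of 1 and 1 with the replicate block, against 2. The number also moved with a library left out. It was 1 to 3 for triple null against FoxA3 null and 0 to 1 for Cre alfp against lox. For triple null it was 0 to 1 against lox and 1 to 5 against Cre alfp. It was 1 to 4 for FoxA3 null against lox and 1 to 1 for the interaction. In liver it was 7 to 8 with both controls kept. Calls over all genes moved too, so these numbers are not read as results about the members. The 3 members called without triple null 3 stood beside 1613 lower and 1911 higher of 11447 genes. Small uncalled log2 differences reversed. For Cre alfp against lox, Idi1 was -0.01 under median scaling and -0.08 under quantile normalization. For triple null against lox under these scalings, Sqle was -0.01 and -0.05, and Dhcr7 was -0.12 and -0.16. With a library left out, Fdps ranged from -0.29 to 0.03 for triple null against FoxA3 null. For Cre alfp against lox, Fdft1 ranged from -0.33 to 0.26 and Idi1 from -0.03 to 0.03. For triple null against lox the ranges were -0.61 to 0.06 for Lss, -0.19 to 0.13 for Dhcr7 and -0.32 to 0.24 for Fdps. Lss ranged from -0.05 to 0.52 for triple null against Cre alfp. For FoxA3 null against lox, Lss ranged from -0.05 to 0.62 and Fdps from -0.23 to 0.33. For the interaction, Lss ranged from -0.46 to 0.23, Fdft1 from -0.55 to 0.04 and Dhcr7 from -0.29 to 0.03. The causes were not tested. Replicate numbers do not pair the hepatocyte libraries: over 21 same-numbered pairs the deviations correlated at -0.36 to 0.17, with 3 over 0.1. With the replicate block, members called were 1 for triple null against FoxA3 null, 0 for Cre alfp against lox, 1 for triple null against lox, 2 for triple null against Cre alfp, 1 for FoxA3 null against lox and 1 for the interaction. Liver columns carry barcodes, so no paired analysis was possible there. With a minimum difference of 1, 933 of all genes rather than 3413 were called for triple null against FoxA3 null.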
